A study of Mus musculus with 16 samples.

Results

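The complement system of the mouse colon was described here through 39 genes: 12 of the classical and lectin pathways, 4 of the central and alternative pathway, 7 of the terminal pathway, 6 receptors and 10 regulators. They were listed by their known place in the pathway, with earlier results of these data known. The array annotation named a feature for 36 of them, and 35 had a value in every group and were tested, among 17995 named genes. The 35 tested genes rest on 49 features. C3, Cfd and C7 are not analysed here, and Cd46, a membrane cofactor that helps inactivate C3b and C4b, had a value on only 7 arrays and was not tested.

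Colon RNA was measured on 16 Agilent arrays in male C57BL/6J mice and in male mice of the strain B6.129P2-Il10tm1Cgn, written Il10-/- here, which lack interleukin 10 and develop colon inflammation when exposed to gut bacteria. All mice, controls included, received Enterococcus strains and a complex intestinal flora by oral gavage, started on the diets at 28 to 35 days of age, ate them for 6 weeks and were sampled after 77 days. The 4 diets were CO (AIN-76A), OA (oleic acid), EPA (the n-3 fatty acid eicosapentaenoic acid) and AA (the n-6 fatty acid arachidonic acid). The OA, EPA and AA diets held 1% corn oil and 3.7% of the fatty acid in a fat-free AIN-76A base, all diets had 5% fat, and intake was limited to the mean intake of the Il10-/- mice. Each of the 8 groups of 6 mice gave 2 arrays, and each array compared the pooled, Cy3-labelled RNA of 2 to 3 mice with a shared Cy5 reference made of small intestine, colon, kidney and liver of Swiss mice and of fetuses. Whether the pools within a group came from different mice is not stated, and p-values therefore cover the variation among arrays alone, which may be technical. In pooled whole tissue, fewer cells of a type and less RNA per cell cannot be told apart.

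Complement is a cascade of plasma proteases that marks microbes and damaged cells. The classical pathway starts when C1q, built of A, B and C chains, binds antibody or a surface and activates the proteases C1r and C1s, which cleave C4 and C2; mannose-binding lectins and ficolins do the same through the MASP proteases. The alternative pathway amplifies the deposition of C3b through factor B, with properdin as a stabiliser, and the terminal components C5 to C9 assemble the membrane attack complex. Liver makes most of the plasma components, while macrophages are the main source of C1q, and receptors on leukocytes and regulators on tissue cells read and restrain the deposited fragments.

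A level is the log2 ratio of the colon sample to the reference RNA for the same feature. Such ratios set arrays against each other and never 1 gene against another, and a low ratio can come from a high level in the liver of the reference. The mean level lay under -2 for 10 of the 35 tested members, Mbl2, Hc, C8a, C8b, C8g, C9, Cfi, C4bp, Clu and Vtn, and the hepatocyte marker list was also low in both genotypes (median over the list -3.76 to -2.001 across arrays). C4bp averages 2 unlike features: 1 read -0.11 in Il10-/- and -0.03 in C57BL/6J colon, the other -4.15 and -4.01. Arrays held 37005 to 40827 features with a value, and their medians lay between -0.02 and -0.00138. The C57BL/6J CO arrays stood apart: the median absolute difference between these 2 arrays was 0.208 over all genes, against 0.0904 to 0.129 in the other groups. Il10 itself read 0.58 ± 0.13 (SD, n = 8) on the arrays labelled Il10-/- and -0.17 ± 0.08 (SD, n = 8) on those labelled C57BL/6J. It is not given whether that feature lies inside the deleted stretch, so this reading checks nothing about the labels. The source name of Il10-/- OA replicate 1 reads EPA, and its title, which reads OA, was followed here.

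Of the 35 complement genes, 14 differed between genotypes averaged over the 4 diets at an adjusted p under 0.05 (limma, Benjamini-Hochberg over 25892 tests), 12 higher and 2 lower in Il10-/- colon. That is 40% of the members, beside 17.3% of everything tested. Everything tested takes in 17995 named genes and also features without a name, and a share over named genes alone is not given. Of the members 34.3% were higher, beside 9.14%, and 5.71% lower, beside 8.12%. The median difference over the members was 0.05, beside -0.01 over all tests. The classical and lectin pathway had 6 of 12 higher and none lower, the central and alternative pathway 2 of 2 higher, the terminal pathway 1 of 6 lower, the receptors 1 of 6 higher, and the regulators 3 higher and 1 lower of 9. On 8 members, 22.9% of the list beside 2.83% of all tests, all 8 Il10-/- arrays lay above all 8 C57BL/6J arrays, and 0 members, beside 1.8% of all tests, showed the reverse. Both Il10-/- arrays lay above both C57BL/6J arrays on each of the 4 diets for 10 members, 28.6% of the list beside 4.71%, namely these 8, Serping1 and Cr1l.

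**Figure D1:**
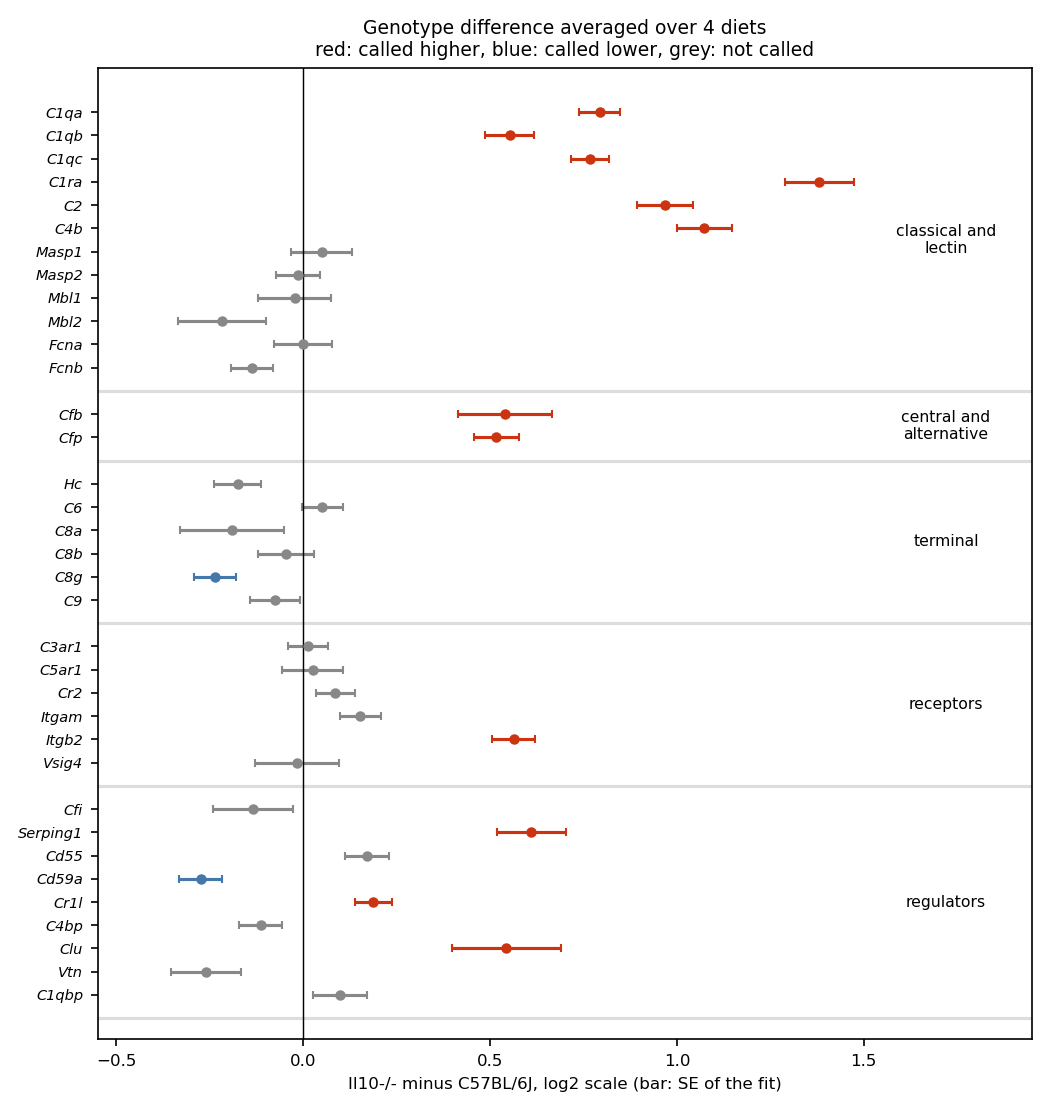
Difference between Il10-/- and C57BL/6J colon averaged over 4 diets (x axis, log2 scale) for the 35 tested complement genes (y axis, grouped by role); bars are the SE of the fit, and red, blue and grey mark genes called higher, called lower and not called. The largest differences are those of C1ra (1.38), C4b (1.07) and C2 (0.97), while 5 of the 6 terminal components are grey.

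The largest difference was that of C1ra, the protease that C1q activates. In C57BL/6J colon its 2 arrays read -2.13 and -2.12 on CO, -2.27 and -2.48 on OA, -1.88 and -1.75 on EPA, then -1.70 and -1.95 on AA. In Il10-/- colon they read -0.62 and -0.82 on CO, -0.54 and -0.42 on OA, -1.02 and -0.35 on EPA, then -0.61 and -0.86 on AA. Every Il10-/- array lay above every C57BL/6J array, with a gap between the highest C57BL/6J reading (-1.70) and the lowest Il10-/- reading (-1.02). The difference was 1.38 ± 0.09 (SE; adjusted p = 1.01e-06, limma), 2.60-fold if the ratios are to base 2, as assumed here.

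C4b, whose product is cleaved by C1s and by MASP2 to give the C4b fragment, read -1.91, -1.53 and -1.18 (lowest, median and highest of 8 arrays) in C57BL/6J and -0.70, -0.44 and -0.19 in Il10-/- colon, a difference of 1.07 ± 0.07 (adjusted p = 1.25e-06, limma). C2, which pairs with C4b in the C3 convertase, read -1.71, -1.39 and -0.88 in C57BL/6J and -0.50, -0.38 and -0.16 in Il10-/- colon, a difference of 0.97 ± 0.08 (adjusted p = 3.16e-06, limma). Its 2 features differed by 1.10 and 0.84. For both genes the genotypes did not overlap on any array.

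All 3 chains of C1q were higher. C1qa read 0.25, 0.66 and 0.98 in C57BL/6J and 1.13, 1.39 and 1.71 in Il10-/- colon, a difference of 0.79 ± 0.06 (adjusted p = 1.57e-06, limma). C1qc read 0.09, 0.39 and 0.69 in C57BL/6J and 0.90, 1.10 and 1.43 in Il10-/- colon, a difference of 0.77 ± 0.05 (adjusted p = 9.21e-07, limma), the smallest adjusted p among the members. C1qb read 0.08, 0.32 and 0.52 in C57BL/6J and 0.62, 0.86 and 1.11 in Il10-/- colon, a difference of 0.55 ± 0.07 (adjusted p = 0.000101, limma). None of the 3 chains overlapped between genotypes, and the lowest Il10-/- arrays of C1qa and C1qb were AA arrays.

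None of the 6 members that start the lectin pathway was called. The mannose-binding lectin genes Mbl1 and Mbl2 differed by -0.02 ± 0.10 and -0.22 ± 0.12, the ficolin genes Fcna and Fcnb by -0.00070 ± 0.08 and -0.14 ± 0.06, and the protease genes Masp1 and Masp2 by 0.05 ± 0.08 and -0.01 ± 0.06. Their adjusted p values ran from 0.122 for Fcnb to 0.997 for Fcna (limma), and the genotypes overlapped for each.

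**Figure D2:**
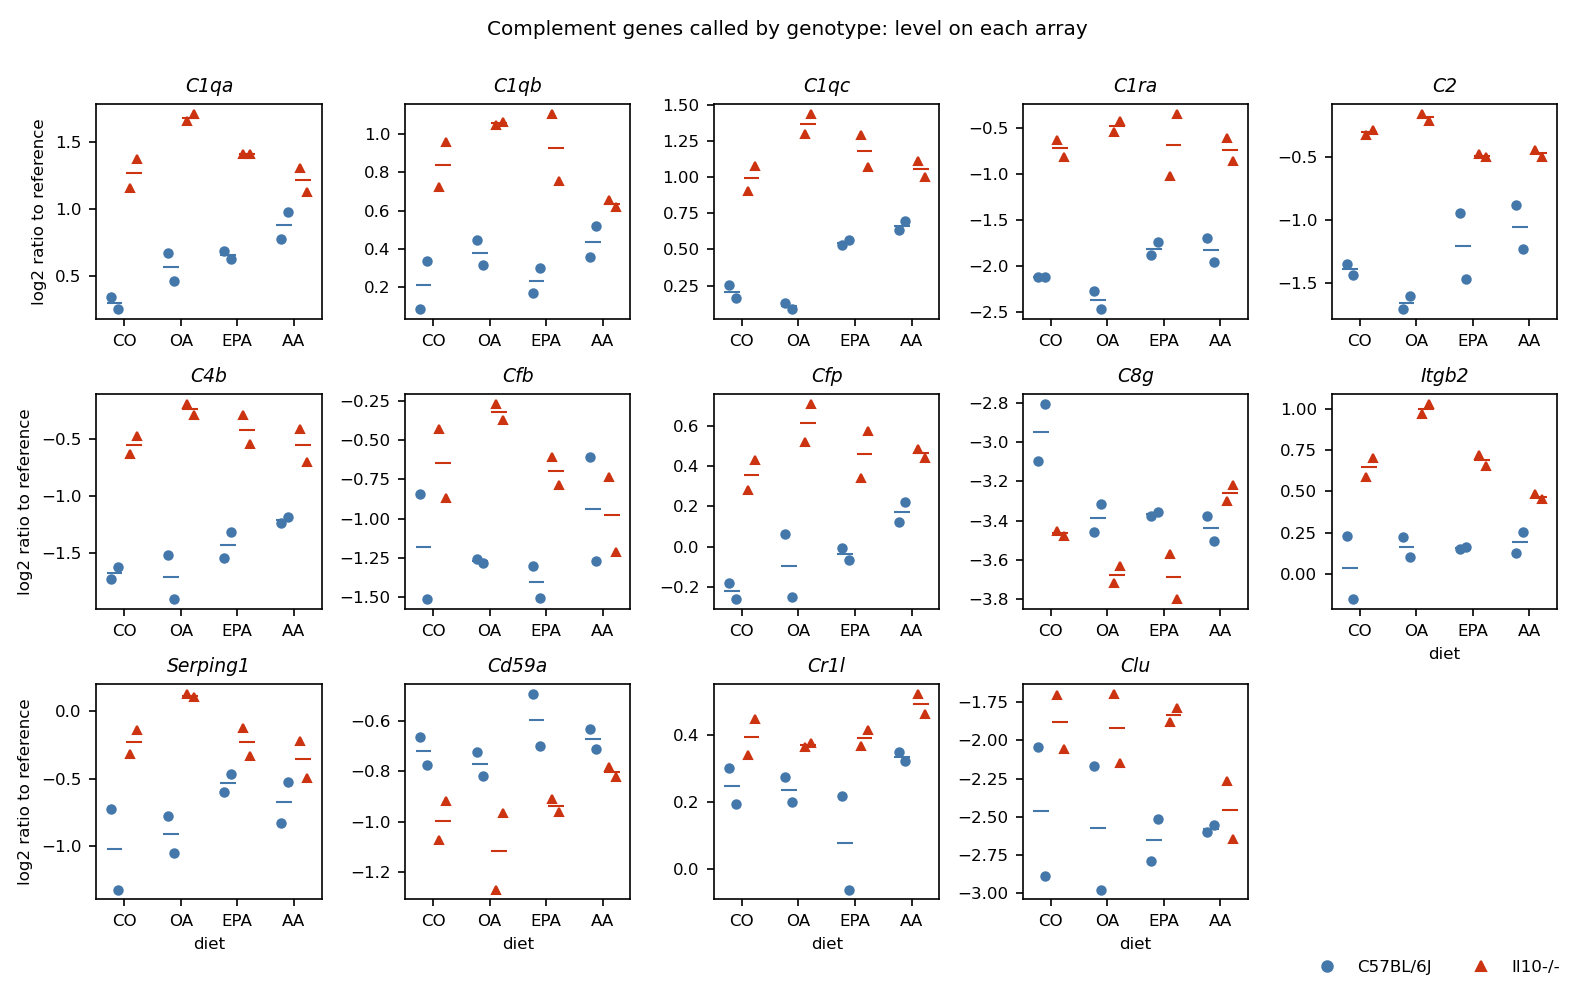
Level on each of the 16 arrays (y axis, log2 ratio to the reference, a scale of its own per gene) by diet (x axis) for the 14 complement genes called by genotype; circles are C57BL/6J, triangles Il10-/-, and dashes the mean of the 2 arrays of a group. Triangles lie above all circles for C1qa, C1qb, C1qc, C1ra, C2, C4b, Cfp and Itgb2, and below the circles of the same diet for Cd59a on all 4 diets.

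The genes of several of these proteins are neighbours in the genome. In the RefSeq table of assembly GRCm38, C1qb, C1qc and C1qa follow each other on chromosome 4, with no protein-coding gene between them, and C1ra, C1s1, C1rb and C1s2 do so on chromosome 6. Cfb and C2 are adjacent on chromosome 17, with C4b 5 protein-coding genes away. Within the chromosome 6 group the neighbours differed: C1s1, which encodes the C1s protease, was higher by 0.80 ± 0.06 (adjusted p = 3.45e-06, limma) and C1s2 by 0.29 ± 0.05 (adjusted p = 0.00198), while C1rb differed by 0.06 (adjusted p = 0.506). C1ra and C1rb, C1s1 and C1s2, C4b and C4a, Cd55 and Cd55b, and Cd59a and Cd59b are closely similar copies, so signal from a copy may reach the other's feature.

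RefSeq promoters (GRCm38.p6, 250 bases before to 50 after the start) were at hand for 7 of the 14 called members. The 5 with the largest differences among them are shown, because 4 of these genes were higher and 1 was lower in the same tissue. Capitals mark matches to the interferon gamma motif GAS (TTCNNNGAA) or to the core of the interferon motif ISRE (GAAANNGAAA), searched on both strands. The windows are C1ra at chr6:124512371-124512670 (plus strand), C1qc at chr4:136892865-136893164 (minus strand), C1qb at chr4:136886151-136886450 (minus strand), Cfp at chrX:20931506-20931805 (minus strand) and Cd59a at chr2:104095551-104095850 (plus strand), each printed 5′ to 3′ on the strand of the gene.
C1ra: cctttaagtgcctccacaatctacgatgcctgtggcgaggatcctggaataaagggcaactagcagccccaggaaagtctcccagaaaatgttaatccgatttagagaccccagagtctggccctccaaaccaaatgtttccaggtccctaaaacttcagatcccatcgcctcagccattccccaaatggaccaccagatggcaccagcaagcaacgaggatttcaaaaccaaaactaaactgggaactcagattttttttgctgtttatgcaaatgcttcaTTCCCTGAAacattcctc
C1qc: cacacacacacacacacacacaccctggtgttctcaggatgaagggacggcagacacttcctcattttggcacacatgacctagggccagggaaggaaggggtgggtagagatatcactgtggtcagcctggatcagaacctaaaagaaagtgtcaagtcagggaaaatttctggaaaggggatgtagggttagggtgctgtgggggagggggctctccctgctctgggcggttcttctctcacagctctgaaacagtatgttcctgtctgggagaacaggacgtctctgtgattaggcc
C1qb: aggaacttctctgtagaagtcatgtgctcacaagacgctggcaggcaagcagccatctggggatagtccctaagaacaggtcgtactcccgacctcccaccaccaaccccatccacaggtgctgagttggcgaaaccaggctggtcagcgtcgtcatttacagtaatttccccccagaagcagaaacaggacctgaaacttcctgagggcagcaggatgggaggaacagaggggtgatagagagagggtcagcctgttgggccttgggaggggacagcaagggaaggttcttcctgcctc
Cfp: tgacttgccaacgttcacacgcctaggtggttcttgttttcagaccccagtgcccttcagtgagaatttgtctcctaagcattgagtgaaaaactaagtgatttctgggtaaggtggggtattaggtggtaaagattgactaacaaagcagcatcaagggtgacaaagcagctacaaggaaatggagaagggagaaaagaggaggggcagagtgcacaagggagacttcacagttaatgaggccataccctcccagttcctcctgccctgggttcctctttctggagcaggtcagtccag
Cd59a: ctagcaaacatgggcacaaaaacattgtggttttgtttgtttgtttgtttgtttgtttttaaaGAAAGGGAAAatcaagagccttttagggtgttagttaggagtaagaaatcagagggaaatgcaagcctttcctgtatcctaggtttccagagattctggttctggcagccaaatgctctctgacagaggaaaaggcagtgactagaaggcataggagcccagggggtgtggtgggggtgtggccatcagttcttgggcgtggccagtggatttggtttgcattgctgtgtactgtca

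C1ra held 1 GAS match, TTCCCTGAA, which begins 33 bases after the start. Cd59a, a gene with a lower level, held 1 ISRE core match, GAAAGGGAAA, which begins 187 bases before the start. The windows of C1qc, C1qb and Cfp held neither motif. Among all 32851 RefSeq promoters of this length 8.3% held the GAS motif and 3.44% the ISRE core, and among 27 promoters of 26 members 4 held GAS (C1ra, C8a, Masp2 and Vtn) and 2 the ISRE core (Cd59a and Vtn). The motifs can overlap in their GAA ends, and a match is a description of letters, not of binding.

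Both measured genes of the alternative pathway were higher. Cfp encodes properdin, which stabilises the alternative convertase and is made by neutrophils and macrophages. It read -0.26, -0.04 and 0.22 in C57BL/6J and 0.28, 0.46 and 0.71 in Il10-/- colon, with no overlap, a difference of 0.52 ± 0.06 (adjusted p = 7.51e-05, limma). Cfb encodes factor B, the protease of that convertase. It read -1.52, -1.28 and -0.60 in C57BL/6J and -1.22, -0.67 and -0.27 in Il10-/- colon, a difference of 0.54 ± 0.13 (adjusted p = 0.0102, limma). The Cfb ranges overlapped, with C57BL/6J AA replicate 1 at -0.60 and Il10-/- AA replicate 2 at -1.22. The genotypes also crossed on CO, with C57BL/6J replicate 1 at -0.84 and Il10-/- replicate 2 at -0.87.

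The terminal components were mostly not called. C8g, the small subunit of C8, read -3.50, -3.37 and -2.81 in C57BL/6J and -3.80, -3.52 and -3.22 in Il10-/- colon, a difference of -0.24 ± 0.06 (adjusted p = 0.0120, limma). On CO, C57BL/6J read -3.09 and -2.81 and Il10-/- -3.45 and -3.48. Both Il10-/- arrays also lay below both C57BL/6J arrays on OA and EPA, and above them on AA. The call was lost without the 4 CO arrays, at -0.14 (adjusted p = 0.157, limma), and after quantile normalization, at -0.07 (adjusted p = 0.606, limma). Hc, which encodes C5, differed by -0.18 ± 0.06 (adjusted p = 0.0802), and C6, C8a, C8b and C9 by 0.05, -0.19, -0.05 and -0.08. The median over the 6 terminal genes was -0.13, and the hepatocyte list had a median difference of -0.20 over 10 genes, of which 1, Tat, was called and was higher. After quantile normalization Hc, C8b and C9 lay above 0, at 0.00452, 0.159 and 0.122, while C6 and C8a kept their signs. How far these readings depend on hepatocyte RNA, in the samples or in the reference, was not tested.

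Among the receptors 1 of 6 was called. Itgb2, the integrin beta chain shared by complement receptors 3 and 4, read -0.15, 0.16 and 0.25 in C57BL/6J and 0.45, 0.68 and 1.03 in Il10-/- colon, with no overlap, a difference of 0.56 ± 0.06 (adjusted p = 2.81e-05, limma). Itgam, the alpha chain of complement receptor 3, differed by 0.15 ± 0.06 (adjusted p = 0.0826), with 0.27 (adjusted p = 0.0317) at 1 feature and 0.05 (adjusted p = 0.701) at the other. Itgax, the alpha chain of complement receptor 4 and from a wider list of complement genes, was higher by 0.35 ± 0.04. The anaphylatoxin receptors C3ar1 and C5ar1 differed by 0.01 ± 0.05 and 0.03 ± 0.08, the latter over 7 arrays of each genotype, Cr2, a receptor of B cells and follicular dendritic cells, by 0.09 ± 0.05, and Vsig4, a receptor of tissue macrophages, by -0.02 ± 0.11. Genotypes overlapped for these 4 receptors and for Itgam.

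Regulators went in both directions. Serping1 encodes the C1 inhibitor, which inactivates C1r, C1s and the MASPs. It read -1.32, -0.75 and -0.46 in C57BL/6J and -0.49, -0.18 and 0.13 in Il10-/- colon, a difference of 0.61 ± 0.09 (adjusted p = 0.000566, limma). On every diet both Il10-/- arrays lay above both C57BL/6J arrays, although the ranges over all diets overlapped. Clu encodes clusterin, a fluid-phase inhibitor of the membrane attack complex. It read -2.97, -2.58 and -2.04 in C57BL/6J and -2.64, -1.97 and -1.70 in Il10-/- colon, a difference of 0.54 ± 0.15 (adjusted p = 0.0211, limma). The Clu call was lost in 4 of the 16 fits that left out an array: without C57BL/6J EPA replicate 1, Il10-/- CO replicate 1, Il10-/- OA replicate 1 or Il10-/- AA replicate 1, its adjusted p lay between 0.0514 and 0.0570.

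Cd59a, a membrane inhibitor that stops C9 from polymerising, was the regulator called lower. It read -0.82, -0.71 and -0.49 in C57BL/6J and -1.27, -0.94 and -0.78 in Il10-/- colon, a difference of -0.27 ± 0.06 (adjusted p = 0.00507, limma). Both of its features were lower, by -0.21 and -0.34, and on each of the 4 diets both Il10-/- arrays lay below both C57BL/6J arrays, which held for 1 of 35 members and for 3.66% of all tests. Cr1l (Crry), a rodent membrane regulator of C3 and C4 cleavage, read -0.06, 0.25 and 0.35 in C57BL/6J and 0.34, 0.40 and 0.52 in Il10-/- colon, a difference of 0.19 ± 0.05 (adjusted p = 0.0196, limma). Its features disagreed: 1 differed by 0.35 (adjusted p = 0.00307) and the other by 0.02 (adjusted p = 0.859). Without C57BL/6J OA replicate 2 its adjusted p was 0.0506, and without Il10-/- CO replicate 2 it was 0.0547.

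Cd55, the decay-accelerating factor that takes C3 convertases apart, differed by 0.17 ± 0.06 (adjusted p = 0.0648, limma), with 0.40 (adjusted p = 0.0222) at 1 of its 4 features and 0.03, 0.19 and 0.06 at the others. The remaining regulators were not called: Vtn (vitronectin) differed by -0.26 ± 0.09 (adjusted p = 0.0795), C4bp (C4b-binding protein) by -0.11 ± 0.06, Cfi (factor I, which cleaves C3b and C4b) by -0.13 ± 0.11 and C1qbp (a mitochondrial protein that binds C1q) by 0.10 ± 0.07. Without C57BL/6J CO replicate 1, Hc differed by -0.22, C8a by -0.32, Cfi by -0.25 and C4bp by -0.16. That fit leaves replicate 2 as the only C57BL/6J CO array. It read -3.85 for Cfi and -1.67 for C4bp, where the nearest other C57BL/6J arrays read -4.47 and -2.01. Itgam was at 0.31 in that fit, through a changed set of features, since features were selected again without the array. Features with a value on all 16 arrays gave 0.27 for Itgam. Without the 4 CO arrays 12 members were higher and 1, Cd59a, lower.

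Of a wider list of 25 complement genes outside the members, 20 were tested, 3 were higher (9.14% of all tests were), 2 were lower (8.12% of all tests), and the median difference was 0.01, beside -0.01 over all tests. The higher ones were C1s1, C1s2 and Itgax, with the values above. The lower ones were Cpn1, which encodes the catalytic subunit of the carboxypeptidase that inactivates anaphylatoxins and read 0.42 in C57BL/6J and -0.54 in Il10-/- colon (difference -0.96 ± 0.09), and Colec10, a collectin of the lectin pathway (difference -0.59 ± 0.10, adjusted p = 0.00143, limma).

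The genotype difference was then read on each diet, where 2 arrays stood against 2. On CO 10 of 35 members were called (8.57% of all tests), on OA 10 (5.06%), on EPA 7 (1.63%) and on AA 1 (1.32%). C1ra was called on every diet, by 1.40 ± 0.18 on CO (adjusted p = 0.000751), 1.90 ± 0.18 on OA (adjusted p = 0.000109), 1.13 ± 0.18 on EPA (adjusted p = 0.00933) and 1.09 ± 0.18 on AA (adjusted p = 0.0121, limma), which 0.649% of all tests also reached in the higher direction. Without C57BL/6J AA replicate 1, C57BL/6J AA replicate 2 or Il10-/- AA replicate 1, no member passed on AA, and C4b, at 0.66 ± 0.15 on AA (adjusted p = 0.0523), passed in several alternatives.

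The other members called on a diet were largely those of the classical pathway. C1qa, C1qb, C1qc, C2 and C4b, with Itgb2, were called on CO, OA and EPA. Cfp and Serping1 were called on CO and OA. These calls depended on single arrays and on the fit. On CO 5 members were called without Il10-/- CO replicate 2 and 16 without C57BL/6J CO replicate 1. On EPA 2 were called without C57BL/6J EPA replicate 1, 4 without its replicate 2, 3 without Il10-/- EPA replicate 1 and 4 without its replicate 2. A fit of only the groups compared called 3 members on CO and 0 on EPA. Cfb, called over the 4 diets, was called on no single diet, with differences of 0.53 on CO, 0.95 on OA (adjusted p = 0.0510), 0.71 on EPA and -0.04 on AA, each ± 0.25. On OA it passed in several alternatives, among them array weights (adjusted p = 0.00595, limma) and a replicate block (adjusted p = 0.00443, limma). C1qc differed by 0.78 ± 0.10 on CO, 1.26 ± 0.10 on OA, 0.63 ± 0.10 on EPA and 0.39 ± 0.10 on AA, and C2 by 1.09, 1.47, 0.72 and 0.59, each ± 0.15. C8g was called lower on CO, by -0.51 ± 0.11 (adjusted p = 0.0149), and read 0.18 ± 0.11 on AA. Cd55 was called on OA, at 0.51 ± 0.12 (adjusted p = 0.0236), where C57BL/6J read -0.71 and -0.45 and Il10-/- -0.16 and 0.01. On EPA and AA its difference was -0.12 and -0.03.

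**Figure D3:**
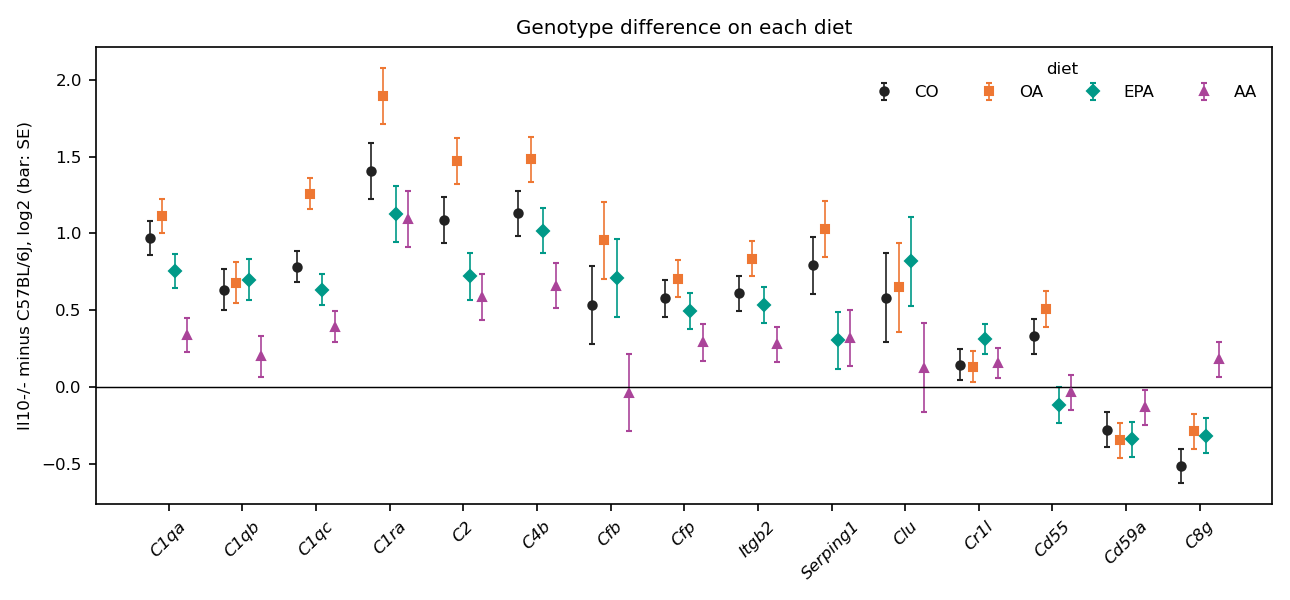
Difference between Il10-/- and C57BL/6J colon on each diet (y axis, log2 scale, bars the SE of the fit) for the 14 called members and Cd55 (x axis); each diet compares 2 arrays with 2. For C1ra, C2, C4b and C1qc the OA point is the highest and the AA point the lowest, and for C8g and Cfb the sign on AA is opposite to that on the other diets.

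No member passed the test of a difference between these genotype effects. In the genotype by diet interaction (F test, limma) 0 of 35 members were called and 0% of all tests, and 9 members (25.7%, beside 6.67% of all tests) had an unadjusted p under 0.05. The smallest adjusted p was that of C1qc, 0.293. That a member was called on CO, OA and EPA and not on AA therefore does not show that its genotype effect differs on AA. Without C57BL/6J CO replicate 1, the result for C1qc and Cfi was not the same. The spread of the remaining C57BL/6J CO array is then assumed to be that of the other groups. For Cfi that array lay apart from the other C57BL/6J arrays.

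The question of the diets, whether the polyunsaturated fatty acids EPA and AA changed colon gene expression, was asked in each genotype. No member was called between EPA and OA, AA and OA, EPA and AA, or OA and CO in either genotype, nor in the F test of any diet difference (limma), while 0.00386% of all tests were called for AA against OA in Il10-/- colon, 0.0154% for OA against CO in C57BL/6J colon, and in the F tests 0.00386% in Il10-/- and 0.00772% in C57BL/6J colon. The other pairs had 0% called. At an unadjusted p under 0.05, Il10-/- colon gave 3 of 35 members for EPA against OA (4.27% of all tests), 11 for AA against OA (7.15%), 2 for EPA against AA (3.39%) and 3 for OA against CO (1.5%). The same counts in C57BL/6J colon were 4 (5.94%), 8 (3.34%), 1 (3.09%) and 4 (11.2%). The F test gave 6 members (4.85% of all tests) in Il10-/- and 8 (8.04%) in C57BL/6J colon at that level. Between AA and OA in Il10-/- colon, Itgb2 read 0.97 and 1.03 on OA and 0.48 and 0.45 on AA, a difference of -0.53 ± 0.12 (adjusted p = 0.349). It passed in 1 alternative, in which arrays were weighted by the spread between the 2 arrays of their group (adjusted p = 0.0260). C1qa read 1.66 and 1.71 on OA and 1.31 and 1.13 on AA, a difference of -0.47 ± 0.11 (adjusted p = 0.433). EPA minus OA, which shares the OA arrays, was -0.31 ± 0.12 for Itgb2 and -0.27 ± 0.11 for C1qa. Other members went the other way between OA and AA in Il10-/- colon. AA minus OA lay above 0 for 21 of 35 members, beside 13065 of 25892 tests, and for 6 of 6 terminal genes (median 0.28). C8g read -3.72 and -3.63 on OA and -3.30 and -3.22 on AA. Cfi read -4.93 and -4.90 on OA and -4.33 and -4.38 on AA.

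Taking EPA and AA together against OA and CO gave 4 arrays against 4 in each genotype, and again 0 of 35 members were called, beside 0.0193% of all tests in C57BL/6J and 0.0811% in Il10-/- colon. Polyunsaturated here names the EPA and AA diets and does not say that OA and CO lack other polyunsaturated fat. At an unadjusted p under 0.05, 9 members (25.7%, beside 7.75% of all tests) differed in C57BL/6J and 4 (11.4%, beside 9.01%) in Il10-/- colon. C1qc came nearest. In C57BL/6J colon it read 0.25 and 0.16 on CO, 0.13 and 0.09 on OA, 0.53 and 0.56 on EPA, then 0.63 and 0.69 on AA. All 4 EPA and AA arrays lay above all 4 OA and CO arrays, an order shown by 3 of 35 members (C1qc, C1ra and Cd55) and by 2.07% of all tests, and the difference was 0.45 ± 0.07 (adjusted p = 0.0676, limma). C1qc passed after quantile normalization, at 0.50 ± 0.06 (adjusted p = 0.0186, limma). Without C57BL/6J CO replicate 1, C1qc was at 0.47, Serping1 at 0.51 and Cfi at -0.33. Replicate 2 is then the only C57BL/6J CO array. It held the lowest C57BL/6J reading of Serping1 (-1.32) and the highest of Cfi (-3.85).

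In Il10-/- colon the same contrast lay below 0 for C1qc and C2. C1qc read 0.90 and 1.08 on CO, 1.30 and 1.43 on OA, 1.29 and 1.07 on EPA, then 1.11 and 1.00 on AA, so that the diets overlapped, and its difference was -0.06 ± 0.07. C2 read -0.32 and -0.28 on CO, -0.16 and -0.21 on OA, -0.48 and -0.50 on EPA, then -0.44 and -0.50 on AA, with all EPA and AA arrays below all OA and CO arrays, a difference of -0.24 ± 0.11 (adjusted p = 0.541). Cd55 showed the same order of arrays (difference -0.14 ± 0.08), which 4.5% of all tests also showed, and Fcnb, the ficolin gene of myeloid cells, the opposite order (0.24 ± 0.08, adjusted p = 0.360), as did 5.07% of all tests.

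The difference of the polyunsaturated effect between genotypes was called for 0 of 35 members and for 0% of all tests, with 9 members (25.7%, beside 8.5%) at an unadjusted p under 0.05. It was -0.51 ± 0.10 for C1qc (adjusted p = 0.130), -0.50 ± 0.11 for C1qa (adjusted p = 0.170), -0.50 ± 0.12 for Cd55 (adjusted p = 0.193) and -0.63 ± 0.15 for C2 (adjusted p = 0.198). C1ra, C4b and Serping1 had values of -0.54, -0.47 and -0.60, and C8g was at 0.33. Without C57BL/6J CO replicate 1, which leaves replicate 2 alone in that group, C1qc was at -0.53, Serping1 at -0.75 and Cfi at 0.52.

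**Figure D4:**
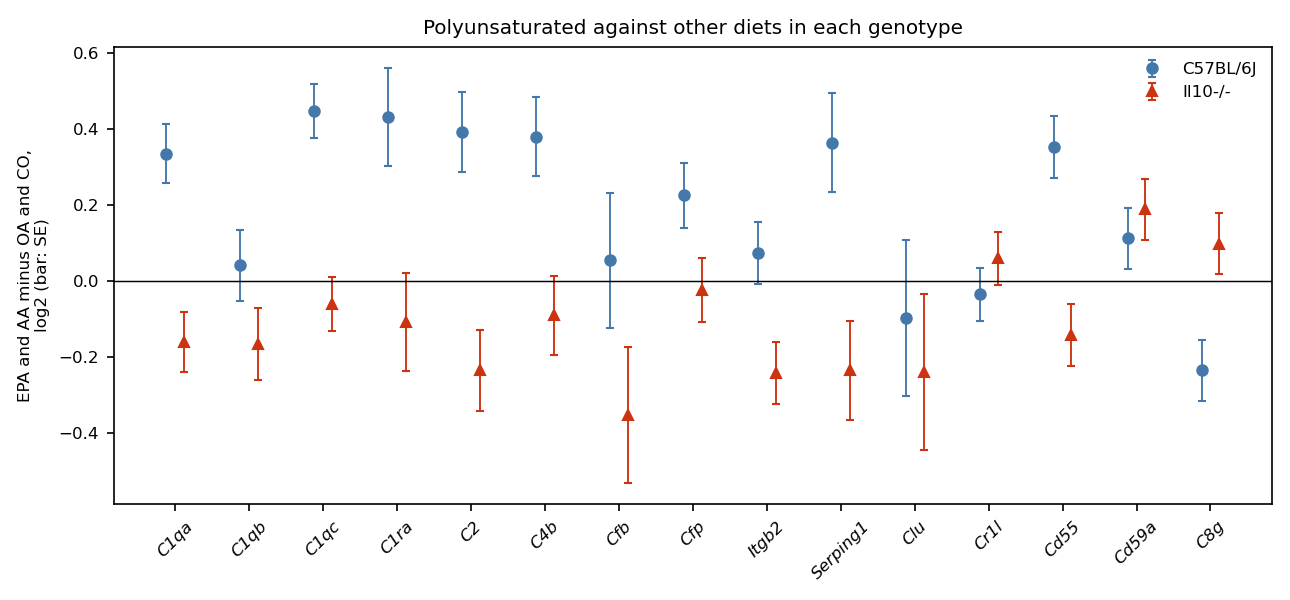
EPA and AA arrays minus OA and CO arrays (y axis, log2 scale, bars the SE of the fit, 4 arrays against 4) within C57BL/6J (circles) and Il10-/- colon (triangles) for the 14 called members and Cd55 (x axis). For C1qa, C1qb, C1qc, C1ra, C2, C4b, Cfb, Cfp, Itgb2, Serping1 and Cd55 the circle lies above 0 and the triangle below, for Cr1l and C8g the reverse, and none of these differences passed the adjusted threshold.

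Markers of macrophages and neutrophils were higher in Il10-/- colon more often than the 9.14% of all tests called higher. Of 10 macrophage and monocyte genes 7 were higher and 1, Mertk, lower, with the list's mean level at 0.35 to 0.62 on Il10-/- arrays and -0.21 to 0.14 on C57BL/6J arrays; Adgre1 differed by 0.63, Aif1 by 1.28 and Fcgr1 by 0.99. Of 12 neutrophil genes 7 were higher, with the mean level at 0.14 to 0.77 and -0.54 to -0.14, and S100a8 differed by 2.73, S100a9 by 4.00 and Camp by 0.40. Of 10 B cell genes 1, Cd79b, was called, higher, a share near that of all tests. Of 4 genes of follicular dendritic cells and lymphoid stroma 2, Cxcl13 and Ccl19, were higher. All 16 tested genes of the interferon gamma response were higher (median 2.00). The part of any of these in the complement differences was not tested.

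Markers of fat and muscle were lower. All 12 adipocyte genes were lower (median -1.06), and their mean level ran from -1.13 to -0.28 on Il10-/- arrays and from -0.69 to 1.08 on C57BL/6J arrays, where C57BL/6J CO replicate 1 read 0.55 and replicate 2 -0.69. Of 8 smooth muscle genes 6 were lower (median -0.50), and of 9 fibroblast genes 1 was higher and 3 lower, where 8.12% of all tests were lower. The colon epithelium list could not serve as a check of the tissue: 10 of its 12 genes held a value shared exactly by 326 to 985 features of an array on all 16 arrays, which left Cdx2 (0.05) and Slc26a3 (-0.65). Such a value also occurred on 1 or more arrays for 4 of the smooth muscle genes, 3 of the adipocyte genes, 3 of the fibroblast genes, 3 of the interferon gamma genes and 1 of the macrophage genes. Without these genes 4 of 4 smooth muscle and 9 of 9 adipocyte genes were lower, 1 of 6 fibroblast genes was higher and 3 were lower, and 13 of 13 interferon gamma and 6 of 9 macrophage genes were higher. C1qbp was the complement member that held such a value, on 1 array.

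The C1q chains and the macrophage list were set side by side across diets. The mean of the 3 chains read 0.23 and 0.25 on CO, 0.42 and 0.29 on OA, 0.46 and 0.50 on EPA, then 0.59 and 0.73 on AA in C57BL/6J colon. The macrophage list there read -0.16 and -0.11 on CO, -0.15 and -0.21 on OA, 0.06 and 0.14 on EPA, then 0.10 and 0.09 on AA. For both means, all EPA and AA arrays lay above all OA and CO arrays. Of the 3 chains C1qc alone showed this order: C1qa overlapped, with an EPA array at 0.63 and an OA array at 0.68, and C1qb differed by 0.04 ± 0.09. In Il10-/- colon the chains read 0.93 and 1.14 on CO, 1.34 and 1.40 on OA, 1.27 and 1.08 on EPA, then 1.02 and 0.92 on AA. The macrophage list read 0.40 and 0.47 on CO, 0.61 and 0.62 on OA, 0.35 and 0.48 on EPA, then 0.47 and 0.42 on AA. Both were highest on the OA arrays, but EPA replicate 1 had the lowest macrophage mean of the 8 arrays and the third highest C1q mean. How far the C1q levels follow macrophage content was not tested.

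**Figure D5:**
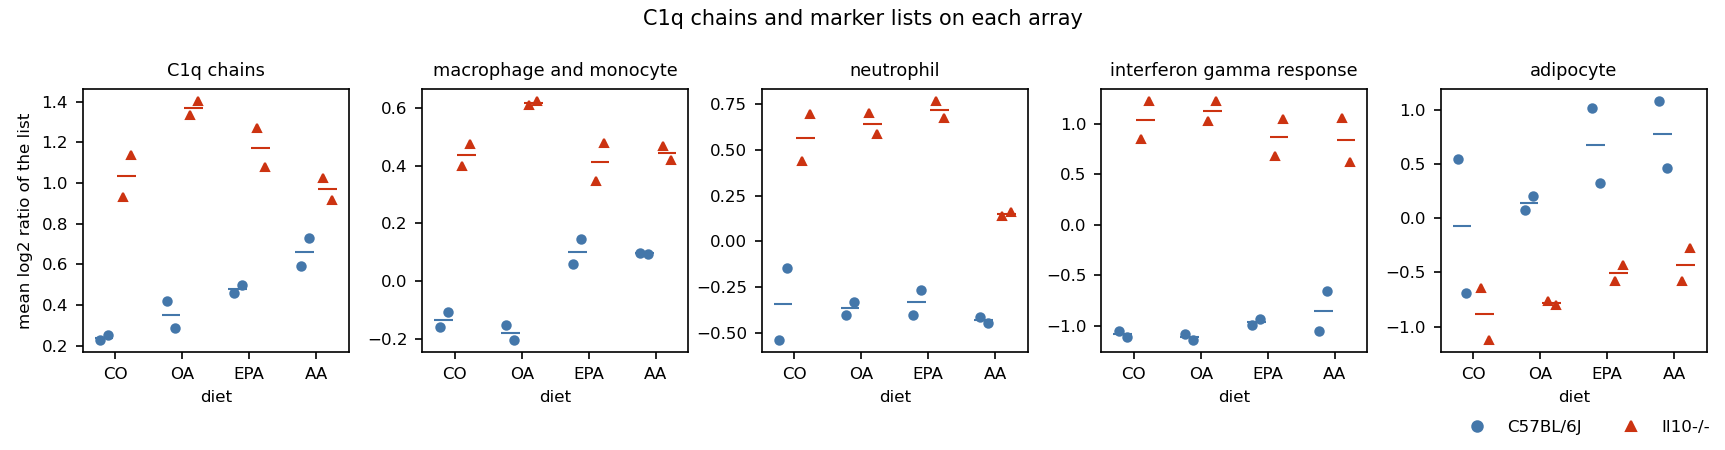
Mean log2 ratio to the reference (y axis, a scale of its own per panel) by diet (x axis) on each of the 16 arrays for the 3 C1q chains and the macrophage, neutrophil, interferon gamma and adipocyte lists; circles are C57BL/6J, triangles Il10-/-, dashes the mean of 2 arrays. The C1q, macrophage, neutrophil and interferon gamma panels separate the genotypes completely, while the adipocyte panel overlaps through C57BL/6J CO replicate 2 at -0.69.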

How the data were processed

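Values were the log2 ratios per feature deposited by the authors, with limma (version not given) named in the submitters' processing notes; how ratios were normalized and background-corrected, or set to missing, is not given in the sources used here. The base was taken as 2, by limma's convention. The direction, also not stated, was settled as sample over reference, because genes of the reference tissues lay below 0 (Umod -2.83 ± 0.25, Ttr -3.51 ± 0.24; SD, n = 16). Brightness was not among the values, so dim or saturated spots went unmarked. Precision is limited by the number of arrays.

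Features with a value in every group (37252 of 44290) were kept and those of a symbol averaged, giving 25892 genes and unnamed features. Of 32042 features with 1 symbol, 31906 were matched to current symbols by gene ID; the 47 with several symbols were not named. In R 4.3.3, limma 3.58.1 fitted 8 group means to the 16 arrays (lmFit, contrasts.fit and eBayes; 8 residual and 4.07 prior degrees of freedom), with Benjamini-Hochberg adjustment across all 25892 tests of a contrast. An adjusted p under 0.05 is called. Python 3.11.15, pandas 2.3.3 and matplotlib 3.10.9 made the promoter search and figures. The fit was tested on simulated data.

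The members, the lists and the tests were chosen with earlier results of these data known. The rule for named genes was to account for every member, with full values for members called by genotype and those used in a diet comparison; for other complement genes, those called; for marker lists, the first 3 measured genes. Some named exceptions (Mertk, Tat, Cd79b, Cxcl13, Ccl19, Cdx2 and Slc26a3) were chosen after their values were seen. Alternatives were other features, scalings, weights, groups, a replicate block, ties as missing, the other label of Il10-/- OA replicate 1, and leaving out arrays. No pair of arrays held identical values.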

Additional observations from a re-analysis of the deposited data

Results flagged for a closer look

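Each genotype's 8 arrays (7 for C5ar1), which span 4 diets, were searched for an array that lies apart from the others by a gap that exceeds Dixon's critical value for that number of arrays. Of 70 gene and genotype groups checked 9 had such an array. The critical value gives about 1 in 20 for independent readings from 1 normal distribution. These groups span 4 diets and their genes share arrays, so that rate is no measure for the count. In C57BL/6J colon, 4 of the 9 were CO replicate 2: Masp2 at -0.95, Itgb2 at -0.15, Cfi at -3.85 and C4bp at -1.67, where the nearest other arrays read -1.19, 0.10, -4.47 and -2.01. The Itgb2 difference between genotypes did not rest on that array, since its difference without the 4 CO arrays was 0.55. In fits without C57BL/6J CO replicate 1, replicate 2 is the only C57BL/6J CO array. Also in C57BL/6J colon, Cr2 read -0.23 on EPA replicate 1 (nearest -0.01) and Cr1l -0.0611 on EPA replicate 2 (nearest 0.19). In Il10-/- colon, Mbl2 read -3.63 (nearest -4.10) and C3ar1 -0.23 (nearest -0.0033) on CO replicate 1, and Vsig4 read 0.33 on AA replicate 2 (nearest -0.15).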

How the results depend on the processing

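Among the 14 members called by genotype, 11 kept direction and call in all 24 alternatives: the 3 C1q chains, C1ra, C2, C4b, Cfb, Cfp, Itgb2, Serping1 and Cd59a. Clu, Cr1l and C8g lost the call as given above. Leaving out the 4 CO arrays was chosen after seeing the data. The count of lower members was 1 after quantile normalization and 1 without the CO arrays. The array weights were the same for both arrays of a group, so they weigh groups by the spread of a pair. On CO the count was 6 with array weights and 3 with only the groups compared, on EPA 0 with only the groups compared, and on AA 2 with features on all 16 arrays, 4 after quantile normalization, 2 with arrays centred on their median and 3 with array weights. AA against OA in Il10-/- colon gave 1 with array weights, and polyunsaturated against other in C57BL/6J 1 after quantile normalization. Fits to only the groups compared were not a separate alternative where all 8 groups enter.

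Leaving out each array in turn gave 11 to 14 higher and 2 to 6 lower members, 5 to 16 on CO, 7 to 13 on OA, 2 to 7 on EPA and 0 to 2 on AA. The fewest on CO came without Il10-/- CO replicate 2, and the fewest on EPA without C57BL/6J EPA replicate 1. OA against CO in C57BL/6J gave 0 to 6, polyunsaturated against other in C57BL/6J 0 to 3, its difference between genotypes 0 to 3, any diet difference in C57BL/6J 0 to 3 and the interaction 0 to 2; these highest counts, and the 16 on CO, came without C57BL/6J CO replicate 1, and the cause was not tested. The other diet comparisons gave 0 throughout.

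Over all genes, replicate 1 minus replicate 2 was compared between groups. Over 28 pairs of groups the correlation ran from -0.35 to 0.38 (median 0.06) and passed 0.1 in 11. Some readings did go with the replicate number. In every group Cfb read higher in replicate 1 (-0.73 and -1.22 on Il10-/- AA). So did the hepatocyte list mean and the count of features at the shared value. With replicate number as a block, 12 members were higher and 3 lower, the addition being Vtn (-0.26, adjusted p = 0.0153, limma). The OA count was 11, the addition being Cfb (0.95 ± 0.16, adjusted p = 0.00443, limma).

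Signs turned only for members that were not called. After quantile normalization Masp2 was at 0.0990, Mbl1 at 0.134, Fcna at 0.0286, Hc at 0.00452, C8b at 0.159, C9 at 0.122, Vsig4 at 0.00979 and Cfi at 0.0782; with median centring Fcna was at 0.00338. Without the CO arrays Mbl1 was at 0.00205, Fcna at 0.0792, C8b at 0.0205, Vsig4 at 0.0286 and C1qbp at -0.00543. With Il10-/- OA replicate 1 counted as EPA, Masp2 was at 0.00456 and Vsig4 at 0.0235. Single features gave -0.0824 and -0.0126 for Masp1, 0.0286 and 0.000179 for Masp2, -0.0227 for C3ar1 and -0.0376 for Cr2, the last also with features on all 16 arrays. Leaving out arrays, the differences ran from -0.0181 to 0.118 for Masp1, -0.0579 to 0.0284 for Masp2, -0.117 to 0.0713 for Mbl1, -0.0633 to 0.0619 for Fcna, -0.100 to 0.00816 for C8b, -0.0163 to 0.0415 for C3ar1, -0.0161 to 0.0680 for C5ar1, -0.0447 to 0.121 for Cr2 and -0.104 to 0.0709 for Vsig4.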
